A study of Homo sapiens with 6 samples.

Results

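The blood stem cell and leukaemia regulator genes LMO2, TAL1, CD34, RUNX1T1, HOXA5, MECOM and CUX1, were followed through the EGR1 and TET2 peak lists of THP-1 cells. They were chosen by name because a peak of at least 1 list marked them, so their having a peak is given by the choice and is not a finding. They are 7 of 20037 protein-coding genes of the RefSeq table. Every peak with a base in a gene or within 50000 bp of either end was taken, which gave 12 peaks. THP-1 is an established human acute myeloid leukaemia line with monocytic features. The cells spent 48 hours with DMSO (solvent) or with OPA1, the submitters' name for an added compound and not the mitochondrial gene of that symbol. Chromatin immunoprecipitation with sequencing (ChIP-seq) used antibodies against EGR1 or TET2, with 1 library for each antibody and treatment and 1 input library without antibody per treatment. All groups are the same cell line, and no group had a replicate, so no test compares the treatments and differences between lists have no replicate check. The ChIP libraries held 19779007 to 19900311 filtered tags.

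LMO2 is an adaptor protein that joins the basic helix-loop-helix factor TAL1, which binds E-boxes, to GATA factors in blood stem and progenitor cells, and both genes are oncogenes of T-cell leukaemia. CD34 is a surface glycoprotein used to mark stem and progenitor cells. RUNX1T1 is a transcriptional corepressor and the partner of RUNX1 in a fusion of acute myeloid leukaemia. HOXA5 and its neighbours are homeobox factors of the HOXA cluster, which is highly expressed in leukaemias with KMT2A fusions such as that of THP-1. MECOM encodes the zinc-finger factor EVI1, and CUX1 encodes a homeobox factor that is lost in some myeloid neoplasms. EGR1 is a zinc-finger factor of the immediate early class that binds GC-rich sites. TET2 oxidises 5-methylcytosine, which in mammalian DNA lies mostly in CpG, and its gene is mutated in many myeloid neoplasms.

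The peak with the most tags and the highest score of the 12 lay beside LMO2, and it covered the start of a non-coding gene, LOC105376621, whose start region could be read from the RefSeq promoter table. The sequence is shown because the summits of the DMSO and the OPA1 TET2 peak both lay in it. It runs 5′ to 3′ on the plus strand of GRCh38.p14, chr11:33893696-33893995, and capitals mark each CpG.
LOC105376621 start region: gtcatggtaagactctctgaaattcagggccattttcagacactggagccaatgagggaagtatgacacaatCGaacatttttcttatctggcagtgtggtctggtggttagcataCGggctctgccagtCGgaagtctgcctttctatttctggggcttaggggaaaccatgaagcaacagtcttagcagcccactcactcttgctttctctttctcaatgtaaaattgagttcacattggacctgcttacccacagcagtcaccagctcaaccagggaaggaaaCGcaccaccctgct

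This window of 300 bp held 248 bp (90.8%) of the DMSO peak and 300 bp (84.0%) of the OPA1 peak. The summits fell at positions 155 (DMSO) and 153 (OPA1) of the sequence, counted from 1 at its 5′ end. Its 4 CpGs stood at positions 73, 117, 131 and 287. The median promoter window of the same length held 14 CpGs, and 24.5% of the 35116 windows held fewer than 4. Motifs were searched on both strands as exact letters. The GATA letters GATAA occurred on the minus strand at position 85, where the printed plus strand reads TTATC. The ETS letters GGAAGT occurred on the plus strand at positions 57 and 132, and the latter match shares 1 base with the CpG at 131. Of all windows 22.7% held GATAA and 22.8% held GGAAGT. No E-box (CANNTG), found in 68.7% of all windows, and neither of the EGR1 forms GCGTGGGCG (0.795% of windows) and GCGGGGGCG (5.07%) occurred in it. The table also matched 8 promoter windows of TAL1, CD34, MECOM and CUX1. No peak of any list reached these windows, so their sequences are not shown, and neither EGR1 form occurred in them. They held 12 (MECOM) to 42 (CUX1) CpGs.

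Of the 12 peaks, 10 were TET2 peaks and 2 were EGR1 peaks. In OPA1, TET2 peaks marked LMO2, TAL1, CD34, RUNX1T1 and CUX1, 5 of the 7 genes, with 7 peaks. The share of protein-coding genes so marked in that list was 10.7%. In DMSO, TET2 peaks marked LMO2, HOXA5 and CUX1 with 1 peak each, where 5.76% of all genes had one. EGR1 peaks marked MECOM alone in OPA1, with 2 peaks (2.92% of all genes), and none of the 7 genes in DMSO (2.51%). These counts follow from how the genes were chosen. No gene carried peaks of both factors, and 5 of the 7 genes had peaks in 1 list alone. The matching shares of all protein-coding genes were not counted. By peaks, 171 of the 891 TET2 peaks in DMSO overlapped a TET2 peak in OPA1, so most had no such overlap. Each list marks few genes, so the counts for the 7 genes are not read as a trait of them.

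**Figure D1:**
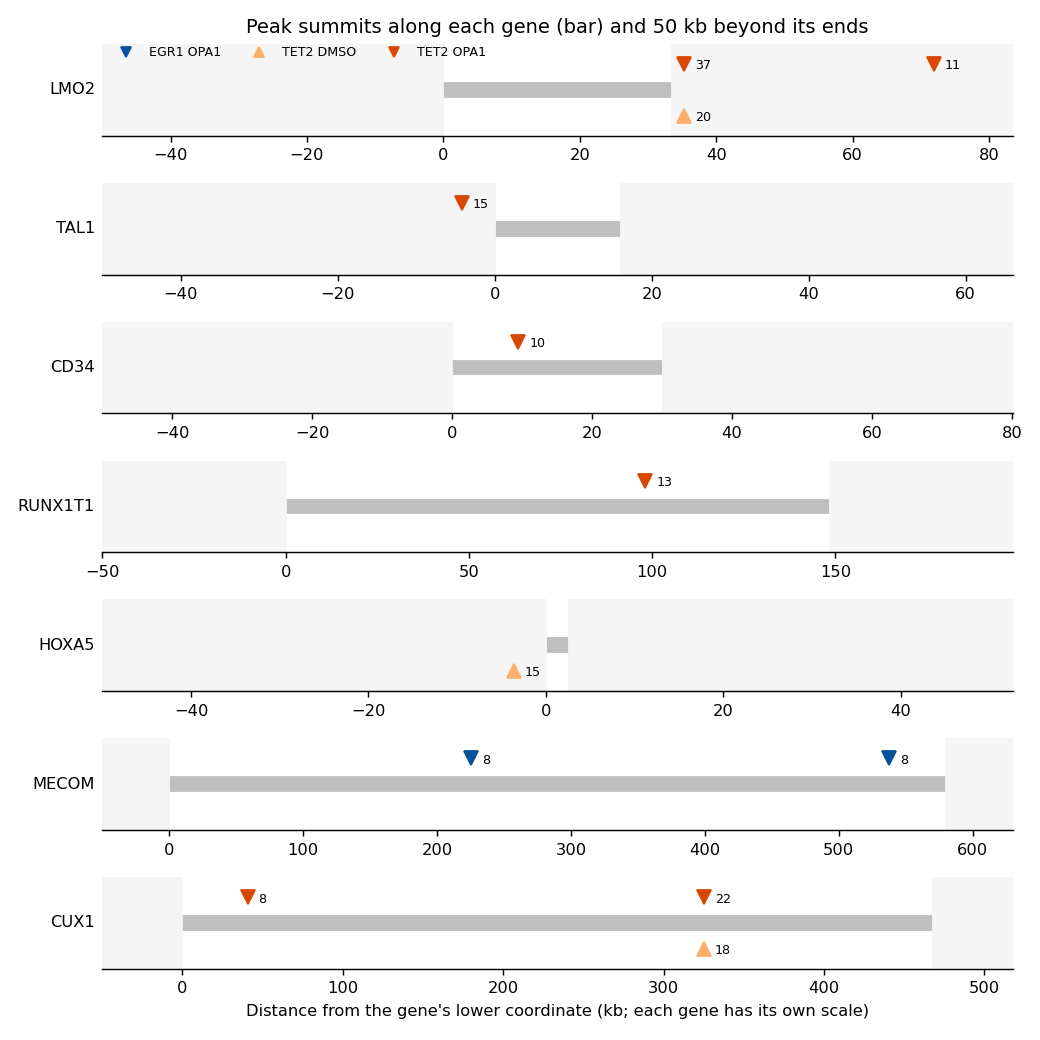
Peak summits along the 7 genes, with the distance from each gene's lower coordinate in kb on the x axis and a separate scale for each gene. The bar is the gene, the shaded parts are the 50 kb beyond its ends, triangles above the bar are OPA1 peaks and those below it DMSO peaks, and the number beside each is its tags. Only the peaks by LMO2 and deep in CUX1 have a DMSO and an OPA1 triangle at the same place.

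Tags are the raw number of sequenced reads in a peak, without normalization, and each number has an exact Poisson 95% interval that covers counting error only. The 12 peaks held 8 to 37 tags and were 162 to 357 bp long. No list holds a peak of fewer than 8 tags, and the medians were 9, 9, 9 and 12 tags in the EGR1 DMSO, EGR1 OPA1, TET2 DMSO and TET2 OPA1 lists. A gene without a listed peak is therefore not shown to lack the factor. The peak false discovery rate, an estimate of the authors' caller, was at most 5% for 7 of the 12 peaks. These were 2 TET2 peaks in DMSO and 5 in OPA1. In the whole lists this limit was met by 2 of 513 EGR1 DMSO and 4 of 515 EGR1 OPA1 peaks. It was met by 172 of 891 TET2 DMSO and 1356 of 1687 TET2 OPA1 peaks, so the count depends on the list.

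**Figure D2:**
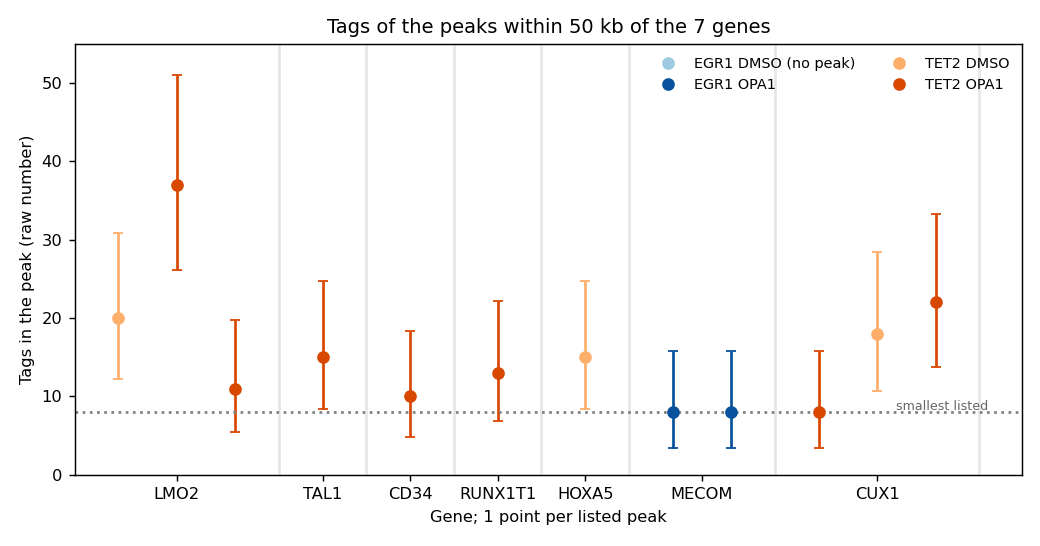
Tags of the 12 peaks on the y axis, grouped by gene on the x axis and coloured by list, with exact Poisson 95% intervals as bars. The LMO2 peak in OPA1 is highest at 37 tags, and both MECOM peaks and 1 CUX1 peak sit at the smallest listed number of 8, marked by the dotted line.

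LMO2 (chromosome 11, 33858576 to 33892076) is read from the minus strand, by textbook knowledge, so its upper coordinate is its 5′ end. In DMSO the TET2 peak at 33893671 to 33893943 held 20 tags (12.2 to 30.9). In OPA1 the peak at 33893690 to 33894046 held 37 tags (26.1 to 51). The OPA1 peak thus held more tags than the DMSO peak. The intervals of the numbers overlap, which does not by itself compare them. The peaks shared 254 bp, and their summits, at 33893850 and 33893848, were 2 bp apart. They lay 1774 and 1772 bp beyond the upper end of LMO2. The DMSO peak ended 3 bp before the start of LOC105376621, and the OPA1 peak crossed it. The nearest other protein-coding genes were FBXO3, a subunit of a ubiquitin ligase, at 119151 bp and CAPRIN1, an RNA-binding protein gene, at 157685 bp.

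The OPA1 to DMSO ratio of tags at LMO2 was 1.85 (1.05 to 3.36, counting error only), over peaks called separately in each list. The OPA1 peak was longer, 357 against 273 bp, so the ratio of tags does not compare equal lengths. Over the whole TET2 lists the median peak was also longer in OPA1, 251 against 188 bp. At LMO2 tags per 100 bp were 10.4 in OPA1 and 7.33 in DMSO, so the density was also higher in OPA1. Within the DMSO list the peak ranked 35 of 891 by tags and 107 by the caller's score, which is 10 times the negative log10 of its p-value. By fold over local background it ranked 809, with a fold of 8.66. In the OPA1 list it ranked 24 of 1687 by tags, 4 by score (258.8) and 4 by fold (33.0). Its peak false discovery rate was 2.75% in DMSO and 0% in OPA1. These folds belong to lists with separate inputs and are not compared.

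A further TET2 peak beyond LMO2 was listed in OPA1 alone, at 33930351 to 33930612. It lay 38275 bp beyond the gene's upper end and 16228 bp from LOC124902659, a non-coding gene. It held 11 tags (5.49 to 19.7), near the list's median of 12, at a false discovery rate of 5.30%. It was the farthest of the 12 peaks from its gene. Just outside the 50000 bp limit was a TET2 peak of 12 tags in OPA1, 59850 bp from TAL1 and inside STIL, a centriole assembly gene. EGR1 peaks were far from LMO2. The nearest lay 1158539 bp away in DMSO and 6374286 bp away in OPA1.

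CUX1 (chromosome 7, 101816007 to 102283958, plus strand) was the other gene with overlapping TET2 peaks in both treatments. Over the whole TET2 lists, 171 of the 891 DMSO peaks overlapped a peak among the 1687 of OPA1. In DMSO the peak at 102141181 to 102141414 held 18 tags (10.7 to 28.4). In OPA1 the peak at 102141158 to 102141492 held 22 tags (13.8 to 33.3). Each number lay inside the interval of the other. The site was deep in the gene, with summits 325311 and 325298 bp from its start, at 69.5% of its length, and 142640 and 142653 bp before its end. The summits were 13 bp apart, and the OPA1 peak covered all 234 bp of the DMSO peak. The nearest other protein-coding gene was SH2B2, an adaptor protein gene, at 143649 bp.

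The tag ratio at CUX1 was 1.22 (0.626 to 2.42, counting error only), also over peaks of different length. The density was lower in OPA1, 6.57 against 7.69 tags per 100 bp, since the OPA1 peak was longer (335 against 234 bp). The DMSO peak ranked 49 by tags, 313 by score and 743 by fold (9.65), and its false discovery rate was 7.01%. The OPA1 peak ranked 152 by tags, 22 by score (160.3) and 2 by fold (34.2), and its rate was 0%. A separate TET2 peak of 8 tags (3.45 to 15.8) was listed in OPA1 alone near the start of CUX1, at 101856453 to 101856642. Its summit lay 40565 bp from the gene's lower end, at 8.67% of its length, and its nearest promoter window, also of CUX1, was 38778 bp away.

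LMO2 and CUX1 were set beside all 171 overlapping TET2 pairs. The median OPA1 to DMSO tag ratio over these pairs was 1.4, with quartiles of 1.14 and 1.83. LMO2 was just above the upper quartile, with 39 pairs higher and 131 lower. CUX1 lay below the median, with 115 higher and 54 lower. The median distance between the summits of a pair was 22 bp. In 13 pairs, LMO2 included, the summits were at most 2 bp apart. Both summits fell in a promoter window of the table in 6 of the 171 pairs (3.51%). The pair beside LMO2 was 1 of these and that in CUX1 was not. The window beside LMO2 is that of LOC105376621, and the table holds none of LMO2.

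**Figure D3:**
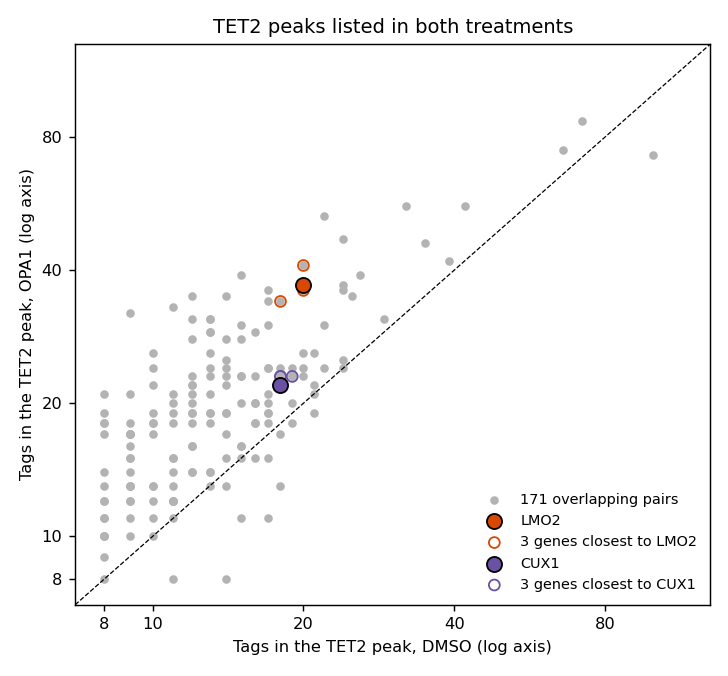
Tags of the 171 overlapping TET2 peak pairs, with DMSO on the x axis and OPA1 on the y axis, both log axes of raw tags. Filled circles are LMO2 and CUX1, open circles the genes with the nearest tag numbers, and the dashed line marks equal numbers. LMO2 (20 and 37 tags) lies farther above the line than CUX1 (18 and 22 tags).

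By the square roots of tags in both TET2 lists, the genes most like LMO2 among 260 protein-coding genes near a pair were ST3GAL1, SLC38A1 and ACOXL. Their tags were 20 and 36, 20 and 41, and 18 and 34 in DMSO and OPA1, at distances of 0.0828, 0.320 and 0.341. The genes most like CUX1 were CELF3 and SNX27, which share a pair of 18 and 23 tags, and BCAR3 with 19 and 23, at distances of 0.105, 0.105 and 0.157. This likeness rests on 2 libraries. An EGR1 peak of the OPA1 list overlapped the TET2 peak at ST3GAL1, SLC38A1, ACOXL and BCAR3. None did at LMO2, CUX1, CELF3 or SNX27. Over all pairs 17 of 171 (9.94%) overlapped such an EGR1 peak.

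Genes with nearly the same tags stood at different places by fold within the DMSO list. LMO2 and ST3GAL1, with 20 tags each, ranked 809 and 509 of 891 by fold, SLC38A1, also with 20, ranked 882, and ACOXL, with 18, ranked 24.

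**Figure D4:**
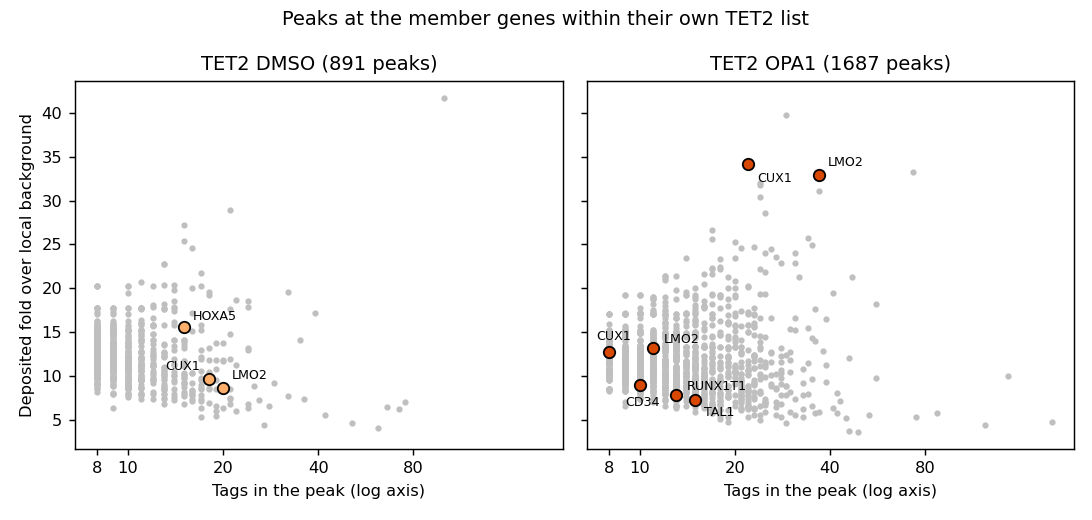
Deposited fold over local background (y axis) against tags (x axis, log) for each peak of the TET2 lists, DMSO on the left and OPA1 on the right, with the peaks at the 7 genes marked. In DMSO the LMO2 and CUX1 peaks have folds of 8.66 and 9.65 beside many tags. In OPA1 each gene has 1 peak among the 4 highest folds and another with a fold of 13.2 (LMO2) or 12.7 (CUX1).

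HOXA5 (chromosome 7, 27141052 to 27143681) was the only 1 of the 7 genes with a TET2 peak in DMSO and none in OPA1. Most TET2 peaks of the DMSO list had no overlapping OPA1 peak, since 171 of 891 had one. The peak at 27137322 to 27137589 held 15 tags (8.4 to 24.7), with a fold of 15.6 (rank 98 of 891), rank 126 by score and a false discovery rate of 3.82%. It lay 3463 bp below the gene's lower end, which is its 3′ side by textbook knowledge. It was inside the RefSeq span of HOXA3, a neighbouring homeobox gene, and 6565 bp from HOXA4. The same peak was within 50000 bp of HOXA4, HOXA6, HOXA7, HOXA9, HOXA10 and HOXA11, and 56775 bp from HOXA13, so it cannot be assigned to HOXA5 by distance alone. The nearest promoter window of the table was that of HOXA4, at 6315 bp, but the table holds no window of HOXA5 itself. The nearest TET2 peak of the OPA1 list was 2326582 bp from HOXA5.

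TAL1 (chromosome 1, 47216290 to 47232335, minus strand) had 1 peak, of TET2 in OPA1, at 47211944 to 47212281. It held 15 tags (8.4 to 24.7), with a fold of 7.27 (rank 1585 of 1687) and a false discovery rate of 3.58%. It lay 4009 bp beyond the lower end, the 3′ side of the gene, and 19385 bp from the nearer of its promoter windows. PDZK1IP1, a membrane protein gene, was 21908 bp away on the lower side and STIL 37858 bp away on the upper side. The nearest TET2 peak in DMSO was 116694 bp from TAL1 and held 11 tags. More tags were thus listed at TAL1 than at the median OPA1 peak, while its fold was among the lowest of that list.

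CD34 (chromosome 1, 207880972 to 207911125, minus strand) had a TET2 peak in OPA1 inside the gene, at 207890287 to 207890556. It held 10 tags (4.80 to 18.4), fewer than the list's median, with a fold of 9.0 and a false discovery rate of 5.31%. Its summit was 9446 bp from the gene's lower end, which is its 3′ end, and the peak was 20520 bp from the CD34 promoter window. No other protein-coding gene lay closer than CD46, a complement regulator gene, at 94771 bp. The nearest TET2 peak in DMSO, of 8 tags, was 708941 bp from CD34.

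RUNX1T1 (chromosome 8, 91954967 to 92103385) also had a TET2 peak in OPA1 inside the gene, at 92052983 to 92053275. It held 13 tags (6.92 to 22.2), near the list's median, with a fold of 7.81 and a false discovery rate of 3.73%. Its summit lay 98140 bp above the gene's lower end and 50278 bp below its upper end. The nearest other protein-coding gene, SLC26A7, an anion transporter gene, was 654828 bp away. The nearest TET2 peak in DMSO held 9 tags and was 303364 bp from RUNX1T1. The TAL1, CD34 and RUNX1T1 peaks ranked 893, 1469 and 1047 of 1687 by score, so none was in the upper part of its list.

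MECOM (chromosome 3, 169083507 to 169663712, minus strand) was the only 1 of the 7 genes with EGR1 peaks, and both were listed in OPA1 alone. The peak at 169309016 to 169309177 held 8 tags (3.45 to 15.8), with a fold of 13.7 and a false discovery rate of 23.3%. The peak at 169621107 to 169621281 also held 8 tags, with a fold of 12.4 and a rate of 20.9%. The median rate of the EGR1 OPA1 list was 22.1%. In that order the peaks ranked 104 and 157 of 515 by fold and 103 and 320 by score. Both held the smallest number of tags that any list holds. The latter was 42382 bp from the promoter window at the gene's 5′ end, and the former was 161295 bp from the nearer of its internal promoter windows. Both peaks therefore lay between the far promoter and the internal ones. The nearest EGR1 peak in DMSO was 3089905 bp from MECOM, and the nearest TET2 peaks were 1058672 bp (DMSO) and 2187318 bp (OPA1) away.

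Gene length bears on these counts, since a longer gene offers more bases for a peak. MECOM (580206 bp) and CUX1 (467952 bp) were longer than 98.8% and 98.2% of protein-coding genes, while HOXA5 (2630 bp) was longer than 8.43%. Of the 483 protein-coding genes of at least 400000 bp, 13.9% had an EGR1 peak in OPA1, 18.2% a TET2 peak in DMSO and 27.5% a TET2 peak in OPA1. Of the 5786 genes of 50000 to 400000 bp, the class of RUNX1T1, 7.47% were marked by TET2 in DMSO and 14.3% in OPA1. Of the 13768 genes under 50000 bp, the size class of LMO2, TAL1, CD34 and HOXA5, these shares were 4.61% and 8.56%.

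A list of 58 other blood stem cell and leukaemia genes was counted in the same window. TET2 peaks in OPA1 marked 14 of the 58 (24.1%, against 10.7% of all protein-coding genes). No HOXA gene was among them, so without the HOXA genes the OPA1 share was 14 of 51 (27.5%). The most tags were at MYB, a progenitor transcription factor gene, with 23 tags (14.6 to 34.5) 30139 bp from the gene, and at ERG, an ETS factor gene of stem cells, with 18 tags 17868 bp from it. Peaks of 12 tags lay 16169 bp from SPI1 and 29676 bp from CEBPA, master regulators of myeloid cells, and 33844 bp from EZH2, a histone methyltransferase gene. CUX2, the paralogue of CUX1, had one of 14 tags in the gene. STIL shares the TAL1 peak and had its own of 12 tags. TCF12 and TCF3, whose proteins pair with TAL1, had peaks of 8 tags, in the gene and at 8611 bp. The remaining genes were BMI1, FLT3, CD38, BCL11A and CBFA2T2, a paralogue of RUNX1T1, with 9 to 12 tags at 21711 to 40158 bp.

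TET2 peaks in DMSO marked 11 of the 58 (19.0%, against 5.76%), but 7 of them were HOXA genes that share the 1 peak near HOXA5. Without the HOXA genes 4 of 51 remained (7.84%). They were HHEX (9 tags at 14899 bp), KIT, the stem cell factor receptor gene (8 tags at 5670 bp), DNMT3A, a DNA methyltransferase gene (10 tags in the gene), and CUX2 (8 tags in the gene, at another site than in OPA1). EGR1 peaks in DMSO marked 2 of 58 (3.45%, against 2.51%), among them CD38 (8 tags in the gene). EGR1 peaks in OPA1 marked none (2.92% of all genes). The OPA1 TET2 share depends on the window. Within 5000 bp it was 3 of 58 (5.17%), near the 4.67% of all genes, and in DMSO it was 5.17% against 2.48%. The DMSO genes within 5000 bp include HOXA3, counted through the peak near HOXA5. That peak also marked HOXA5, which was chosen for having a peak. Over all protein-coding genes the number marked in OPA1 was also lower in the narrower window, 936 within 5000 bp against 2139 within 50000 bp. In DMSO 3 of the 5 distinct TET2 peaks near the 58 genes lay inside a gene of the list, among them the peak near HOXA5, inside HOXA3. In OPA1 there were 15 distinct peaks, and 3 of the 58 genes held one inside. The share of the 58 genes with a TET2 peak inside was thus 5.17% in each treatment. Over all protein-coding genes it was 2.00% in DMSO and 3.91% in OPA1.

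**Figure D5:**
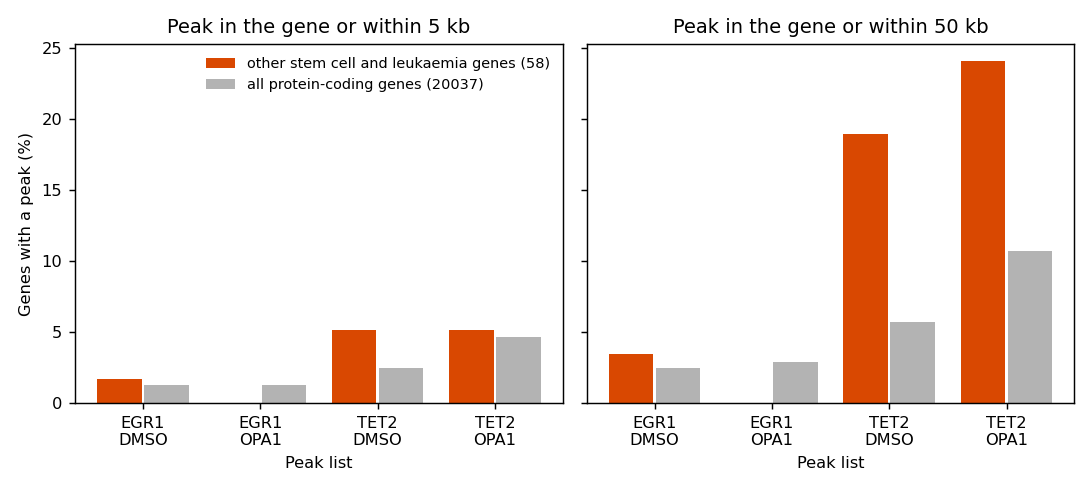
Percent of genes with a peak in each list, for the 58 other stem cell and leukaemia genes and for all 20037 protein-coding genes, with a window of 5 kb on the left and 50 kb on the right; bars start at 0. The OPA1 TET2 bars are 24.1 and 10.7% at 50 kb and 5.17 and 4.67% at 5 kb.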

How the data were processed

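The members and the gene lists were chosen with earlier results of these data known. Peaks were called on each ChIP library against the input of its treatment with MACS 1.4.2 at a p-value cutoff of 1e-05, with 1 tag kept per position, per the file headers. The submitters' processing notes name GRCh38, HOMER, whose role is not given in the sources, and Bowtie2 2.2.6. The deposited tags are a raw count per peak. The deposited score is -10 times log10 of the p-value of each peak, the deposited fold is a ratio to local background, and the deposited false discovery rate is in percent.

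Here, peaks were joined to RefSeq genes of GRCh38.p14, which give gene spans without exons, with Python 3.11.15 and pandas 2.3.3. Introns and exons were therefore not told apart. Summits are the listed start plus the listed offset, which may differ by 1 bp with the caller's counting. Peaks that share at least 1 bp overlap. Sequences came from the RefSeq promoter table (250 bp before to 50 bp after a start), which matched 4 of the 7 genes; no genome sequence was used, so other peaks' sequences, motifs and repeats were not analysed here. The scripts were tested on simulated peaks. Genes were named by rule: the 7 genes, genes of the list of 58 with a peak (58 of 58 names matched), neighbours of each peak, and the 3 genes nearest in tags to a gene with overlapping TET2 peaks. Alternatives changed the window, the peak threshold, the overlap and the use of summits. Some genes that the rule would name are not reported here.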

Additional observations from a re-analysis of the deposited data

How the results depend on the processing

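Values below are in the order EGR1 DMSO, EGR1 OPA1, TET2 DMSO and TET2 OPA1. Counting summits, scaling tags to 20000000 per library and an overlap of 50% of the shorter peak left every result within 1.5 times its value. Inside gene bodies alone the 7 genes had 0, 2, 1 and 4 peaks on 0, 1, 1 and 3 genes. With a false discovery rate of at most 5% they had 0, 0, 2 and 5 peaks on 0, 0, 2 and 4 genes, with 0, 0, 35 and 95 tags. With a score of at least 70 they had 0, 0, 1 and 2 peaks on 0, 0, 1 and 2 genes. LMO2 alone kept overlapping TET2 peaks, 1 pair, under either limit. The 58 other genes had a peak at 1, 0, 3 and 3 of them within 5000 bp and at 1, 0, 3 and 3 in the gene body. They had one at 2, 2, 18 and 17 within 100000 bp, at 0, 0, 8 and 13 with a rate of at most 5%, and at 0, 0, 0 and 3 with a score of at least 70. Of all protein-coding genes 256, 262, 497 and 936 had a peak within 5000 bp, 233, 219, 400 and 783 in the gene body and 794, 926, 1852 and 3433 within 100000 bp. With a rate of at most 5% these were 5, 4, 278 and 1784 and with a score of at least 70 they were 16, 41, 205 and 611. These alternatives count fewer peaks or other windows by construction. No paired analysis was possible because each group had 1 library. At this depth the median peak held 9 to 12 tags, so a peak missing from a list is not shown to be absent.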

Other observations

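Widening the window to 100000 bp added 1 peak at the 7 genes, the TET2 peak of 12 tags in OPA1 inside STIL, 59850 bp from TAL1. Between 50000 and 100000 bp no other peak of any list lay near LMO2, CD34, RUNX1T1, HOXA5, MECOM or CUX1.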
